A study of Mus musculus with 4 samples.

Results

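Mammary tumours of wild-type FVB mice that received RU486 were compared with those of wild-type mice that received placebo. RU486 (mifepristone) blocks the progesterone receptor and the glucocorticoid receptor. The comparison took 2 of the 4 arrays of the series and was read over all 12393 genes with a probe set of 1 gene symbol, of which 6197 reached the median level of all genes (the level filter). All mice were nulliparous females given 15 mg of MP (Depo-Provera), a progestin, and then 4 weekly doses of 1 mg of the carcinogen DMBA by gavage. Pellets with a release time of 60 days held placebo or 2.5 mg RU486, and were implanted after the last DMBA dose and once more when that time had passed. The other 2 arrays held tumours of MMTV-PAX8PPARg mice, whose transgene is driven by a viral promoter active in mammary epithelium, under the same treatments. They entered the level filter and the choice of probe sets, and their values are set beside those of the wild-type (WT) arrays.

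Each array held RNA pooled in equal amounts from 5 mice. With 1 array per group there was no replicate, no difference has a test or an error, and precision is limited by the single array on each side. Treatment, pool and array cannot be told apart. The samples are labelled as mammary tumours, while the extraction protocol speaks of mammary gland tissue.

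Progesterone acts on a subset of luminal cells of the mammary gland, which answer with paracrine signals such as RANKL, the product of Tnfsf11, to neighbouring cells. Prolactin acts through JAK2 and STAT5 on alveolar cells, where STAT5 and the ETS factor Elf5 drive milk protein genes. Glucocorticoids act together with prolactin on the same genes.

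The arrays had been scaled to the same trimmed mean, and their median signals were 163.1 (WT placebo) and 163.0 (WT RU486). Spike-in controls were 1.59 times as bright on the RU486 as on the placebo array, and the 3' to 5' ratio, a measure of RNA integrity, was 3.33 against 2.51 for Gapdh and 1.03 against 1.15 for Actb. Their part in the differences was not tested. A signal at or under the brightest bacterial control probe set of its array, 9.6 on placebo and 18.5 on RU486, is called within the background range. Where the dimmer signal of a gene lay there, the fold is given as a bound, with the brighter signal set against that control or the dim signal, whichever was higher. Differences are RU486 minus placebo in log2(signal + 16), after the median of each array was brought to a common value. Lower and higher in counts mean at least 2-fold. Counts used these differences, also where a signal lay in the background range, so the bound of a counted gene can be under 2-fold.

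Among the 6197 genes at or above the level filter, 511 (8.25%) were lower and 341 (5.5%) higher under RU486. At 4-fold the counts were 205 (3.31%) and 66 (1.07%), and at 8-fold 101 (1.63%) and 8 (0.129%), so the excess of lower genes grew with the size of the difference. The excess at 2-fold depended on the level filter, which takes the mean of all 4 arrays. With filter and probe sets from the 2 WT arrays alone, 48.1% of the genes past 2-fold were higher, against 40.0%. Over all 12393 genes, 1097 (8.85%) were lower and 923 (7.45%) higher, and these shares are the background for the gene lists, which were read without the level filter. Past 4-fold, 404 (3.26%) of all genes were lower and 139 (1.12%) higher, and past 8-fold 169 (1.36%) and 17 (0.137%). The median difference was 0.01 over all genes. Probe sets of the same gene differed from each other by a median SD of 0.16 log2 over the 2267 genes with several probe sets at that level. This spread is technical and leaves out the variation between mice and pools. Of the genes at least 4-fold lower, 48 had a second probe set at the filter level and in all 48 it was lower too. The same held for 12 of 12 genes at least 4-fold higher.

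**Figure D1:**
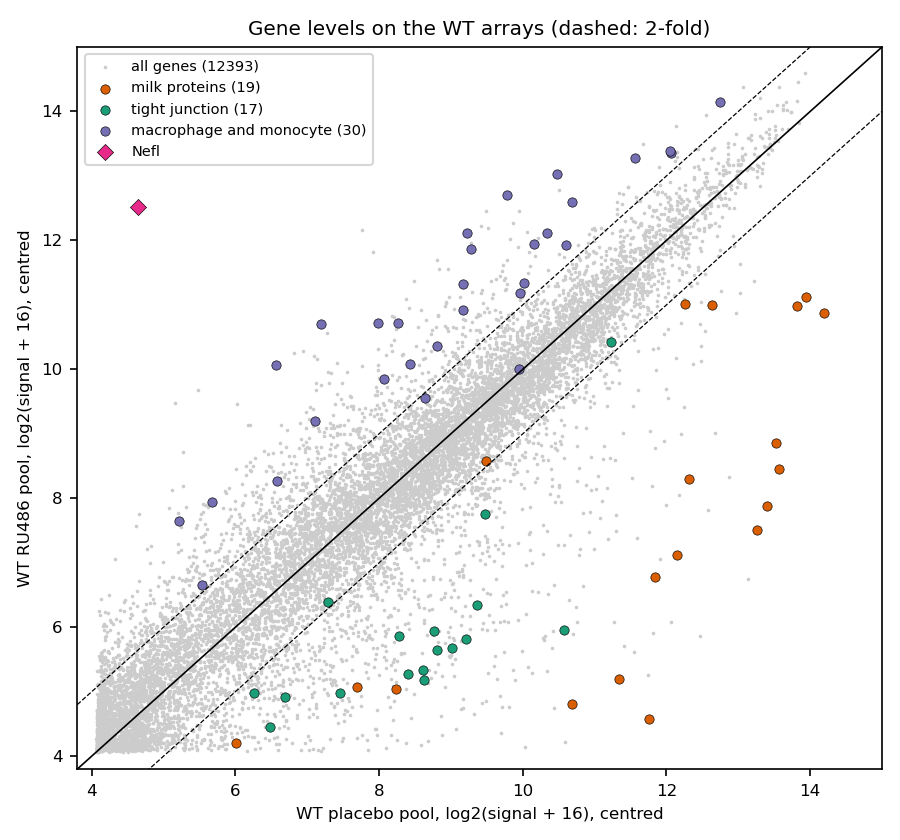
Levels of 12393 genes on the WT placebo (x) and WT RU486 (y) arrays, as log2(signal + 16) centred on the array median, 1 point per gene, with equality as a solid and 2-fold as dashed lines. Of 19 milk protein genes 18 lie below the 2-fold band, as do 15 of 17 tight junction genes, while 28 of 30 macrophage genes lie above it and Nefl stands alone at the upper left.

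Milk protein genes showed the lowest median of the 56 lists, -4.02, with 18 of 19 measured members lower and 0 higher. The calcium-sensitive casein gene Csn1s2b read 1563 under placebo and 10.8 under RU486, at least 84.5-fold lower. Csn1s1, an alpha casein gene, read 11569.5 and 321.5 (-5.10), and the beta casein gene Csn2 read 11273 and 430.1 (-4.66). The 5 casein genes of the cluster, Csn1s1, Csn2, Csn1s2a, Csn1s2b and Csn3, were neighbours in the order of measured genes and all lower, with a median of -4.66. Glycam1, a mucin-like milk protein gene, read 10371 and 210.2 (-5.52), and the milk fat globule genes Muc15 and Btn1a1 differed by -5.07 and -5.03. Probe sets of Btn1a1 ranged from -5.03 to -1.92. Xdh, whose product takes part in milk fat secretion, was the member within 2-fold, at 672.9 and 348.3 (-0.92). Fewer secretory cells and less milk RNA per cell cannot be told apart in bulk tissue, here or for any gene below. Both WT arrays lay at the ends for this list: the placebo array was the highest of the 4 in 16 members and the RU486 array the lowest in 15. Cel, a milk lipase gene, shows this, with 3300 on WT placebo and 6.8 on WT RU486 (at least 178-fold lower), and 82.4 and 125.7 on the PAX8PPARg placebo and RU486 arrays.

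The 250 bases before the start of the milk genes were searched on both strands for the STAT motif TTCNNNGAA, since prolactin acts on these genes through STAT5. The promoters are RefSeq's, of GRCm38.p6. Of 13 matched promoters 3 (23.1%) held it, against 7.02% of all 32851 promoters and 5.7% of those of genes at the level filter. The motif was in 5.26% of promoters of genes at least 4-fold lower and in 9.68% of those at least 4-fold higher. The 3 milk gene promoters are shown with the match in capitals. Csn1s1 lies on the + strand at chr5:87665958-87666207, with the first base of the match at -100 from the start. Csn2 lies on the - strand at chr5:87699426-87699675, with the match at -93. Glycam1 lies on the - strand at chr15:103565082-103565331, with the match at -145.
Csn1s1: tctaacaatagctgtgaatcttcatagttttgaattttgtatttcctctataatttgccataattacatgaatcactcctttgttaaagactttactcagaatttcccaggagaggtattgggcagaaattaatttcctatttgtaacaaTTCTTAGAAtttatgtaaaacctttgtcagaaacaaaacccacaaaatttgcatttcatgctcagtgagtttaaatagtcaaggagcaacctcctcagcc
Csn2: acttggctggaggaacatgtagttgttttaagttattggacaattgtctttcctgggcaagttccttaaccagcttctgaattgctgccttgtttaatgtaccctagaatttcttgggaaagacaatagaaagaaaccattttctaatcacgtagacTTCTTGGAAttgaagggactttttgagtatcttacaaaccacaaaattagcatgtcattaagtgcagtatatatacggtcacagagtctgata
Glycam1: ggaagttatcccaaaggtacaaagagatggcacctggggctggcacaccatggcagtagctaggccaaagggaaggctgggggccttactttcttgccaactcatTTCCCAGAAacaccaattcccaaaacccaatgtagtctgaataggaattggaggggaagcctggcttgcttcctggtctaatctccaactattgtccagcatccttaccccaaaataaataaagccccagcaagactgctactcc
Socs3, a feedback inhibitor of cytokine signalling, holds the letters of the Csn1s1 match in its promoter and differed by 0.15. A match is a description of the sequence and not a binding site.

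Of 14 genes of the prolactin and STAT5 pathway, 6 were lower and 0 higher (median -0.22). The transcription factor genes were lower, with Stat5a at 2255 and 361.6 (-2.59), Stat5b at 416.9 and 141.4 (-1.46) and Elf5 at 3415 and 41.9 (-5.89). The STAT5 target genes Socs2 (681 and 237.5, -1.46) and Cish (147.6 and 47.4, -1.37), which encode feedback inhibitors, were lower as well. Jak2, the receptor-bound kinase gene, read 902.3 and 849.9 (-0.08).

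Fatty acid and triglyceride synthesis had 11 of 22 genes lower and 0 higher (median -0.97). Olah, whose thioesterase ends synthesis at the medium chain length of milk fat, read 839.8 and 9.9, at least 45.4-fold lower. Thrsp, a lipogenic protein gene, read 7154 and 290.7 (-4.55), and the fatty acid binding protein gene Fabp3 read 1735 and 79.4 (-4.20). Srebf1, a transcriptional regulator of lipogenesis, differed by -1.59, and the acyltransferase gene Gpam by -1.43. Acly, which supplies acetyl-CoA, was within 2-fold at 4734 and 3814 (-0.31). Of 17 cholesterol synthesis genes 0 were lower and 0 higher (median -0.46), with Hmgcs1 at 2368 and 2009 (-0.23).

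Of 23 epithelial transporters and channels, 14 were lower and 1 higher (median -1.24). The nucleoside transporter gene Slc28a3 read 2585 and 34 (-5.70), the folate receptor gene Folr1 1189.8 and 37.7 (-4.49), and the water channel gene Aqp3 558 and 38.7 (-3.39). Slc30a4, a zinc transporter of milk secretion, read 1089 and 1473 (0.43), and the chloride channel gene Cftr was the higher member at 20.5 and 73.8 (1.30). In the secretory pathway list 3 of 24 genes were lower and 0 higher (median -0.05), against 8.85% and 7.45% of all genes. Xbp1, a transcription factor of secretory cells, was lower at 5031 and 1026 (-2.27), while the chaperone genes Hsp90b1 (0.37) and Pdia3 (0.48) were within 2-fold.

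Genes of cell junctions, which hold epithelial sheets together, were lower across several classes. Of 17 tight junction genes 15 were lower and 0 higher (median -2.83), and here the RU486 array was the lowest of the 4 for 17 of 17 members while the placebo array was the highest for 5. Occludin, Ocln, read 360.5 and 22.8 (-3.28), the tricellular junction gene Marveld2 552.9 and 38.2 (-3.39), and the polarity gene Pard6b 363.2 and 18.9 (-3.44). Tjp1, a scaffold gene also used by other cell types, was within 2-fold at 2282 and 1295 (-0.81). Adherens junctions, desmosomes and hemidesmosomes had 15 of 20 lower and 1 higher (median -1.65, or -1.51 with signals raised to the bacterial control). The E-cadherin gene Cdh1 read 2403 and 156.6 (-3.81), Epcam 6249 and 479.3 (-3.66) and the desmosomal cadherin gene Dsg2 698.3 and 71.7 (-3.03). Dst, a cytolinker gene, was higher at 783.9 and 2817 (1.83), and the laminin receptor gene Itga6 read 3728 and 3628 (-0.04). Gap junction genes split, with 3 of 8 lower and 0 higher (median -0.27). Gjb2, the gene of connexin 26, had the largest negative difference of all genes at or above the level filter, with 5385 and 40 (-6.59). Gjb6 read 990.3 and 1, at least 53.5-fold lower, whereas Gja1, connexin 43, read 5989.6 and 4614 (-0.37).

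**Figure D2:**
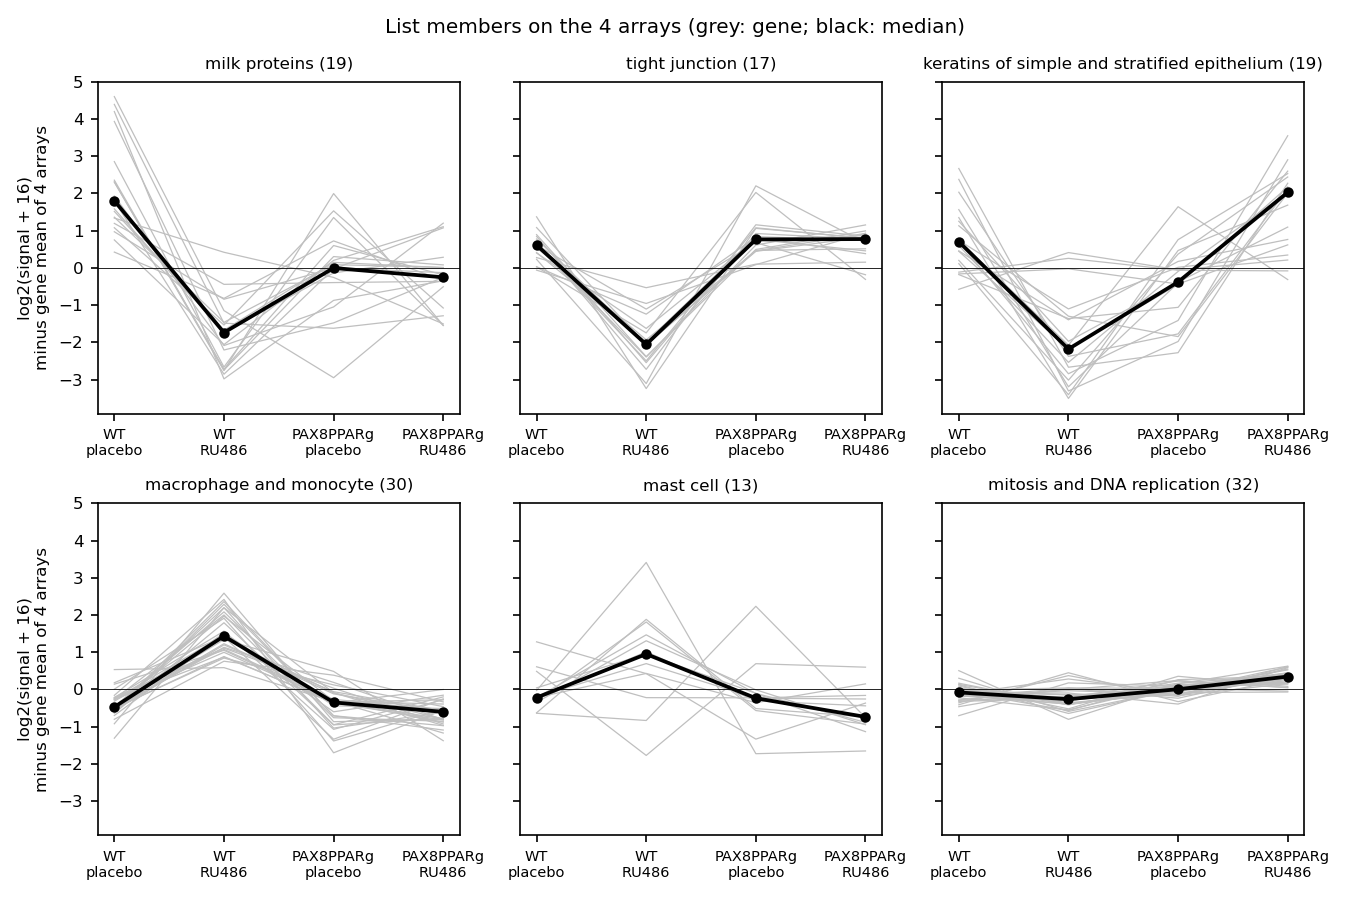
Each panel shows the members of 1 gene list on the 4 arrays as log2(signal + 16), not centred, minus the mean of the gene over the arrays, with grey lines for genes and the black line for their median. Tight junction genes were lowest and macrophage genes highest on the WT RU486 array, milk protein genes were also high on the WT placebo array, and 1 of 32 genes of mitosis passed 2-fold in WT.

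Of 19 keratin genes 16 were lower and 0 higher (median -3.14). Luminal Krt7 differed by -4.86, and Krt8 and Krt18, chosen after their values were seen, were still bright under RU486, with 2201 against 7929.8 and 2507 against 9097 (-1.84 and -1.85). Krt14, a basal keratin gene, read 5817 and 199.2 (-4.76), though its probe sets ranged from -4.76 to -0.14. Krt79 read 494.2 and 27.6 (-3.55). Cornified envelope and epidermal genes had 17 of 20 lower and 0 higher (median -2.02, or -1.72 with signals raised to the bacterial control). S100a14, an epithelial calcium binding protein gene, read 1453 and 1.8, at least 78.6-fold lower, and the protease gene Klk7 read 890.8 and 18.8 (-4.70). Serpinb5, the gene of maspin, read 2219 and 141.7 (-3.82). Of the 20 members 11 lay in the background range under RU486.

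Among 22 epithelial transcription and splicing factor genes 15 were lower and 1 higher (median -1.62, or -1.42 with raised signals). The grainyhead genes Grhl1 (1619 and 59.9, -4.43) and Grhl2 (777 and 61.2, -3.36) and the ETS gene Ehf (2936 and 143.6, -4.21) were lower. Trp63, the p63 gene of basal cells, read 1222 and 157.3 (-2.84), and Tfap2c read 3333 and 490.9 (-2.72). The splicing regulator gene Esrp1 differed by -4.22 and its relative Esrp2 by 0.06, at 968.7 and 1008. Tfap2b was the higher member at 110.9 and 295.7 (1.30).

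Epithelial innate defence had 15 of 21 genes lower and 1 higher (median -2.85, or -2.68 with raised signals). The serum amyloid genes Saa1 (8604 and 86.5, -6.39), Saa2 (4089.8 and 48.6, -5.99) and Saa3 (4393 and 237.6, -4.12) were lower. They are related genes whose probe sets may share transcripts, and Saa1 and Saa2 are near copies. Pigr, which carries immunoglobulin A across epithelium, read 724.2 and 24.4 (-4.19), and the defensin gene Defb1 954.7 and 31.6 (-4.35). Lyz2, a lysozyme gene of macrophages, was higher at 6560.1 and 17387 (1.40).

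Markers of cell types were summed to show how the tissues differed. The 9 luminal markers summed to 36089.7 under placebo and 6219 under RU486, with 8 lower, and Elf3 in the background range under RU486. The 5 basal markers summed to 13761 and 4628, with 4 lower and a median difference of -2.84. Itga6 made up 3628 of the sum under RU486, and the other 4 markers summed to 10033 and 1000.5. The 4 keratinised markers summed to 2027 and 174.2, with Krt1, Ivl and Lor in the background range under RU486. The 5 macrophage markers summed to 4348 and 17312.5, with 5 higher, and the 4 fibroblast markers to 31529.5 and 40402, with 0 past 2-fold. The 3 endothelial markers summed to 1189 and 776.6, the 2 measured adipocyte markers to 6009 and 2894.5, and the 3 muscle markers to 2500.1 and 1393. Fabp4 made up 5680 and 2729.6 of the adipocyte sums. The 3 measured T cell markers summed to 188.1 and 259.8, with 1 higher, Cd4 (27.5 and 77.7). Cd3e read 78.6 and 67.3, and Cd3g 82 and 114.8. For the 3 measured B and plasma cell markers the sums were 115.8 and 325.3. The part of tissue makeup in the differences of single genes was not tested.

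**Figure D3:**
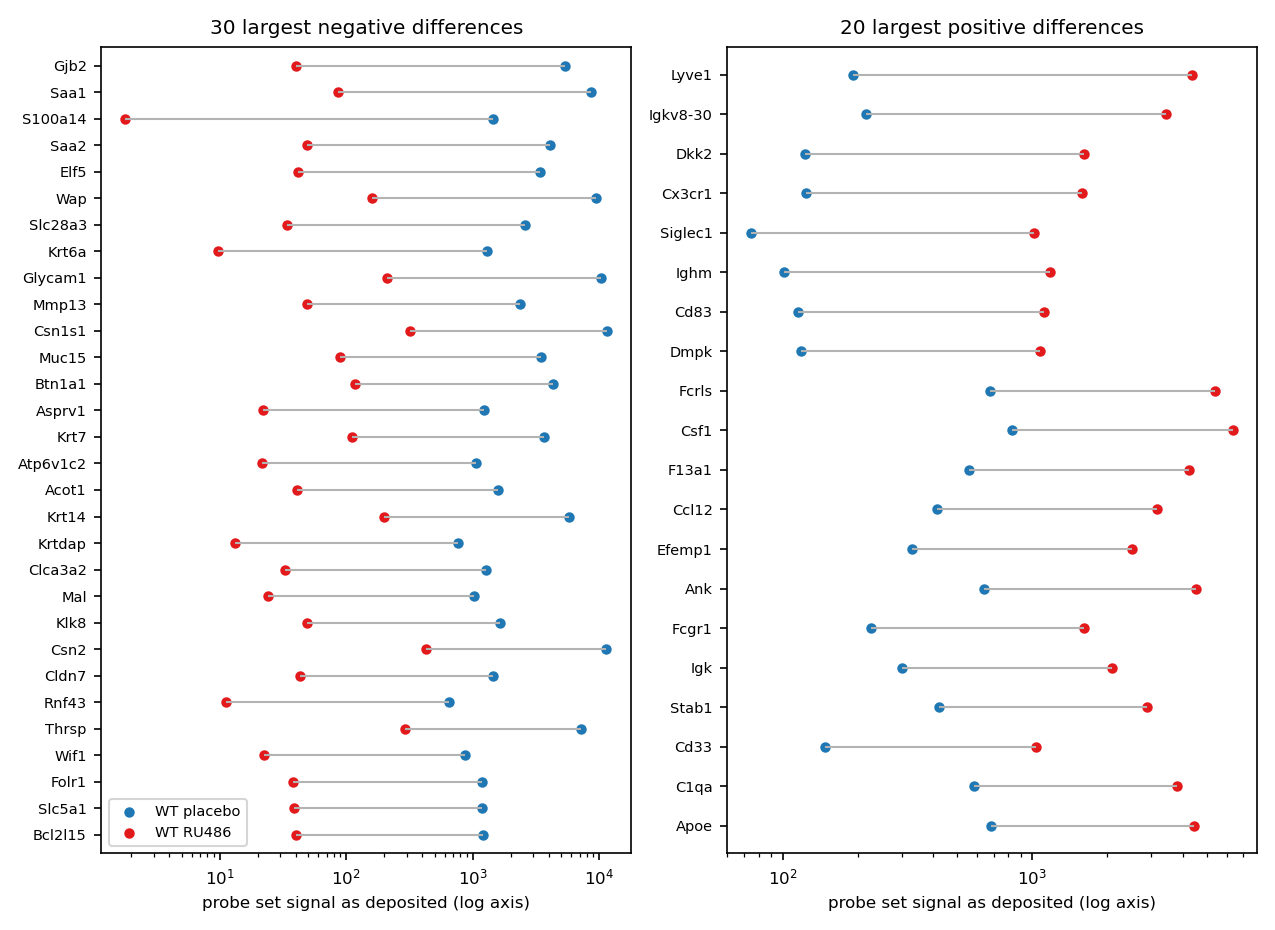
Deposited signals on the WT placebo and WT RU486 arrays, on log axes, for the 30 genes with the largest negative and the 20 with the largest positive differences among genes at or above the level filter, 1 line per gene. Gjb2 leads on the left with 5385 and 40, and Lyve1 on the right with 191.7 and 4366.

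Of 16 steroid, nuclear and prolactin receptor genes in the list 1 was lower and 1 higher (median 0.02, or 0.09 with raised signals), near the shares over all genes (8.85% and 7.45%). Of the 16 members 7 were at or above the level filter. Pgr, the progesterone receptor gene, was dim on both arrays at 37.3 and 37.9, under the array medians of 163.1 and 163.0. With the background range reaching 18.5 under RU486, its signal left little room for a lower reading. Nr3c1, the glucocorticoid receptor gene, read 968.3 and 1165, and Esr1 105.6 and 78.3. Differences within 2-fold were also measured for Pgrmc1 (-0.76), Pgrmc2 (-0.28), Vdr (-0.25), Rxra (-0.04), Pparg (-0.84), Ppard (0.17), Rara (0.38), Rarg (0.43), Rarb (0.80) and Thra (0.61). Esr2 lay in the background range on both arrays. Thrb was at least 3.73-fold lower and Ppara at least 2.7-fold higher, both with a dim signal in the background range.

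Of 15 progesterone and estrogen response genes 6 were lower and 1 higher (median -0.79). Tnfsf11, the RANKL gene, read 668.5 and 105.5 (-2.49), Id4, a regulator of progenitor cells, 5464 and 1247 (-2.12), and Igfbp5 6626 and 2259 (-1.54). Ccnd1, the cyclin D1 gene, read 3477 and 6653 (0.93), and Greb1, an estrogen target, was at least 5.32-fold higher. Of 23 glucocorticoid receptor targets 6 were lower, 1 higher and 16 within 2-fold (median -0.01). The decoy receptor gene Il1r2 read 311.9 and 44.2 (-2.44), the cell cycle inhibitor gene Cdkn1a 2979.8 and 769.8 (-1.93), and Pdk4 749.8 and 285.6 (-1.34). Anxa1 read 4317 and 4499.5 (0.06), and Zbtb16 was higher at 13.6 and 53.9 (1.24). Fkbp5 (343.5 and 348.1), Tsc22d3 (773.5 and 772.2) and Sgk1 (2381 and 2191), chosen after their values were seen, were within 2-fold. The palindromic steroid receptor motif, searched on both strands, was in 1 of 190 promoters (0.526%) of genes at least 4-fold lower, in 0 of 62 of those at least 4-fold higher, in 0.229% at the level filter and in 0.387% of all promoters.

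Growth factor lists were mixed. In the EGF receptor family 4 of 13 were lower and 2 higher (median -0.57), with the receptor gene Erbb3 at 1693 and 126.7 (-3.58), the ligand gene Tgfa at 136.5 and 22.1 and the inhibitor gene Lrig1 at 866.4 and 1785 (1.03). For the IGF and FGF axes the counts were 5 lower and 3 higher of 22 (median -0.43). The epithelial receptor gene Fgfr2 read 1159.9 and 370.4 (-1.60), and the binding protein gene Igfbp4 4332 and 9638 (1.15). Among 24 TGF-beta and BMP genes 4 were lower and 4 higher (median -0.06), with Tgfb2 at 2007 and 294.3 (-2.70) and Bmp2 at 68.8 and 332.5 (2.04). The Wnt axis had 9 of 30 lower and 4 higher (median -0.28): the inhibitor genes split, with Wif1 at 874.9 and 22.5 (-4.53) and Dkk2 at 123 and 1613 (3.55), and the ligand gene Wnt5b read 1308 and 81 (-3.77). Ctnnb1, the beta-catenin gene, read 7951 and 8769.5 (0.14). The Notch axis had 7 of 20 lower and 1 higher (median -0.52), with the ligand gene Jag1 at 608.4 and 231 (-1.34) and the receptor gene Notch2 at 1941 and 4061 (1.06).

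Genes of the stroma did not share 1 direction. EMT regulators and mesenchymal markers had 4 of 20 lower and 5 higher (median 0.31), with Zeb2 at 460.3 and 2861 (2.60), Snai2 at 184 and 60.8 (-1.38) and Vim at 11663.5 and 20320.3 (0.80). Of 23 collagen genes 2 were lower (8.7%, near the 8.85% of all genes) and 0 higher (median -0.19), and Col1a2 read 12012 and 16041.5 (0.42). Laminins and integrins had 4 of 23 lower and 8 higher (median 0.49). The chains of epithelial laminin were lower, with Lama3 at 1059 and 74.5 (-3.57) and Lamb3 at 1036 and 154.3 (-2.63). The leukocyte integrin genes Itgam (19.7 and 176.6, 2.43) and Itgb2 (527.6 and 2525, 2.23) were higher. Among 22 matrix proteases and inhibitors 8 were lower and 1 higher (median -0.24, or -0.02 with raised signals), with the collagenase gene Mmp13 at 2357 and 48.7 (-5.20) and the inhibitor gene Timp2 at 3240.0 and 6569 (1.02). The lower count includes Timp4, dim on both arrays at 18.1 and 1.

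Smooth muscle and pericyte genes had 9 of 17 lower and 0 higher (median -1.30). Contractile genes that myoepithelium also uses were among them, with Myh11 at 1369.8 and 266.2 (-2.30), Acta2 at 5392 and 1584 (-1.76) and the oxytocin receptor gene Oxtr at 128.1 and 21.5 (-1.94). Adipocyte genes had 6 of 16 lower and 0 higher (median -0.88), with the lipase gene Lpl at 2822.5 and 642.2 (-2.11). Of 20 blood endothelial genes 0 were lower and 0 higher (median -0.41), with Cdh5 at 428.5 and 302.9 (-0.48). The lymphatic list had 2 of 10 lower and 3 higher (median -0.03, or 0.24 with raised signals), since Lyve1 (191.7 and 4366, 4.40) and Stab1 (421.6 and 2870.4, 2.72), both also made by tissue macrophages, were higher, and Reln (296.5 and 30.6, -2.74) was lower. Flt4, the lymphatic growth factor receptor gene, read 323.4 and 154.2 (-0.99). Skeletal muscle genes had 1 of 15 lower and 2 higher (6.67% and 13.3%, against 8.85% and 7.45% of all genes). Their median was -0.20, and Myh1 read 1229 and 1013 (-0.27).

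The macrophage and monocyte list was the reverse of the epithelial lists, with 28 of 30 genes higher, 0 lower and a median of 1.78. All 30 members were highest on the RU486 array among the 4 arrays. The mannose receptor gene Mrc1 read 1345 and 7957 (2.55), the scavenger receptor gene Msr1 581.8 and 3554.5 (2.58), the lectin gene Siglec1 74.8 and 1016 (3.51) and the folate receptor gene Folr2 278.9 and 1594 (2.45). Probe sets of Siglec1 ranged from 1.22 to 3.51. Csf1, the growth factor of macrophages, read 829.6 and 6366 (2.92). Cd14, the endotoxin co-receptor gene, was within 2-fold at 933.3 and 968.3 (0.05). Complement had 3 of 17 lower and 7 higher (median 0.17): the genes of the C1q chains were higher, with C1qc at 929.2 and 5346 (2.50), while the decay factor gene Cd55 was lower at 789.6 and 133.2 (-2.43). Of 26 lysosome genes 5 were higher and 0 lower (median 0.65), with the protease gene Lgmn at 453.7 and 1985 (2.09).

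Chemokine genes had 7 of 25 higher and 1 lower (median 0.48). Monocyte attractants were among the higher ones, with Ccl2 at 274 and 1503 (2.39), Ccl7 at 117.2 and 770.9 (2.56) and Ccl12 at 414.7 and 3159 (2.88). Cxcl2, a neutrophil attractant, was lower at 83.2 and 29.7 (-1.12). Of 18 chemokine receptor genes 3 were higher and 2 lower (median 0.19), with Ccr2, the receptor of those monocyte attractants, at 312.5 and 1880.1 (2.53) and Cxcr4 at 1788 and 1658 (-0.11). Cytokines and their receptors had 9 of 29 higher and 3 lower (median 0.21), with the alarmin gene Il33 at 392 and 1477 (1.87) and Csf2 at least 4.16-fold lower.

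MHC class II presentation had 8 of 12 genes higher and 0 lower (median 1.19), with Cd83 at 115.2 and 1116 (3.11), the costimulatory gene Cd86 at 131.2 and 505.6 (1.83) and H2-Aa at 5307 and 10416 (0.97). Of 13 MHC class I genes 0 passed 2-fold in either direction (median 0.30), and B2m read 11334 and 16862 (0.57). The interferon response had 2 of 24 higher and 2 lower (8.33% each, median -0.16), near the shares over all genes (7.45% and 8.85%). Irf8, a factor of the myeloid lineage, read 171.2 and 644.4 (1.82). B and plasma cell genes had 5 of 13 higher and 0 lower (median 0.80), and Ighm read 101.3 and 1177 (3.35), with probe sets from -0.47 to 3.93. Of the 13 members 4 lay in the background range on both arrays, among them Blk, counted as higher at 0.3 and 17.2. Of 20 T and NK cell genes 1 was higher and 3 lower (median 0.25), with the helper cell gene Cd4 at 27.5 and 77.7 (1.11), Gzmb at 418.8 and 25.4 (-3.39), and Gzma at least 10.97-fold lower. The dendritic cell list had 3 of 14 higher and 0 lower (median 0.58), though Itgax, which encodes CD11c, read 282.9 and 198.1 (-0.48). Mast cell genes had 6 of 13 higher and 1 lower (median 0.91). The tryptase genes Tpsab1 (46.3 and 660.5, 3.44) and Tpsb2 (78.9 and 524.9, 2.51) and the protease gene Cpa3 (93.7 and 337.2, 1.69) were higher. Kit, a receptor of mast cells and of luminal progenitors, was lower at 516.1 and 95.1 (-2.26). Neutrophil and eosinophil genes had 5 of 17 lower and 1 higher (median -0.50), with S100a9 at 2366 and 355.7 (-2.68). The lower members S100a8, S100a9, Ltf and Lcn2 were also in the epithelial innate defence list. Of the 17 members 5 lay in the background range on both arrays. The erythroid list had 2 of 8 lower and 0 higher (median -0.30, or 0.36 with raised signals), with Car2 at 995.8 and 103.4 (-3.08). In this list 4 of the 8 members lay in the background range on both arrays.

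**Figure D4:**
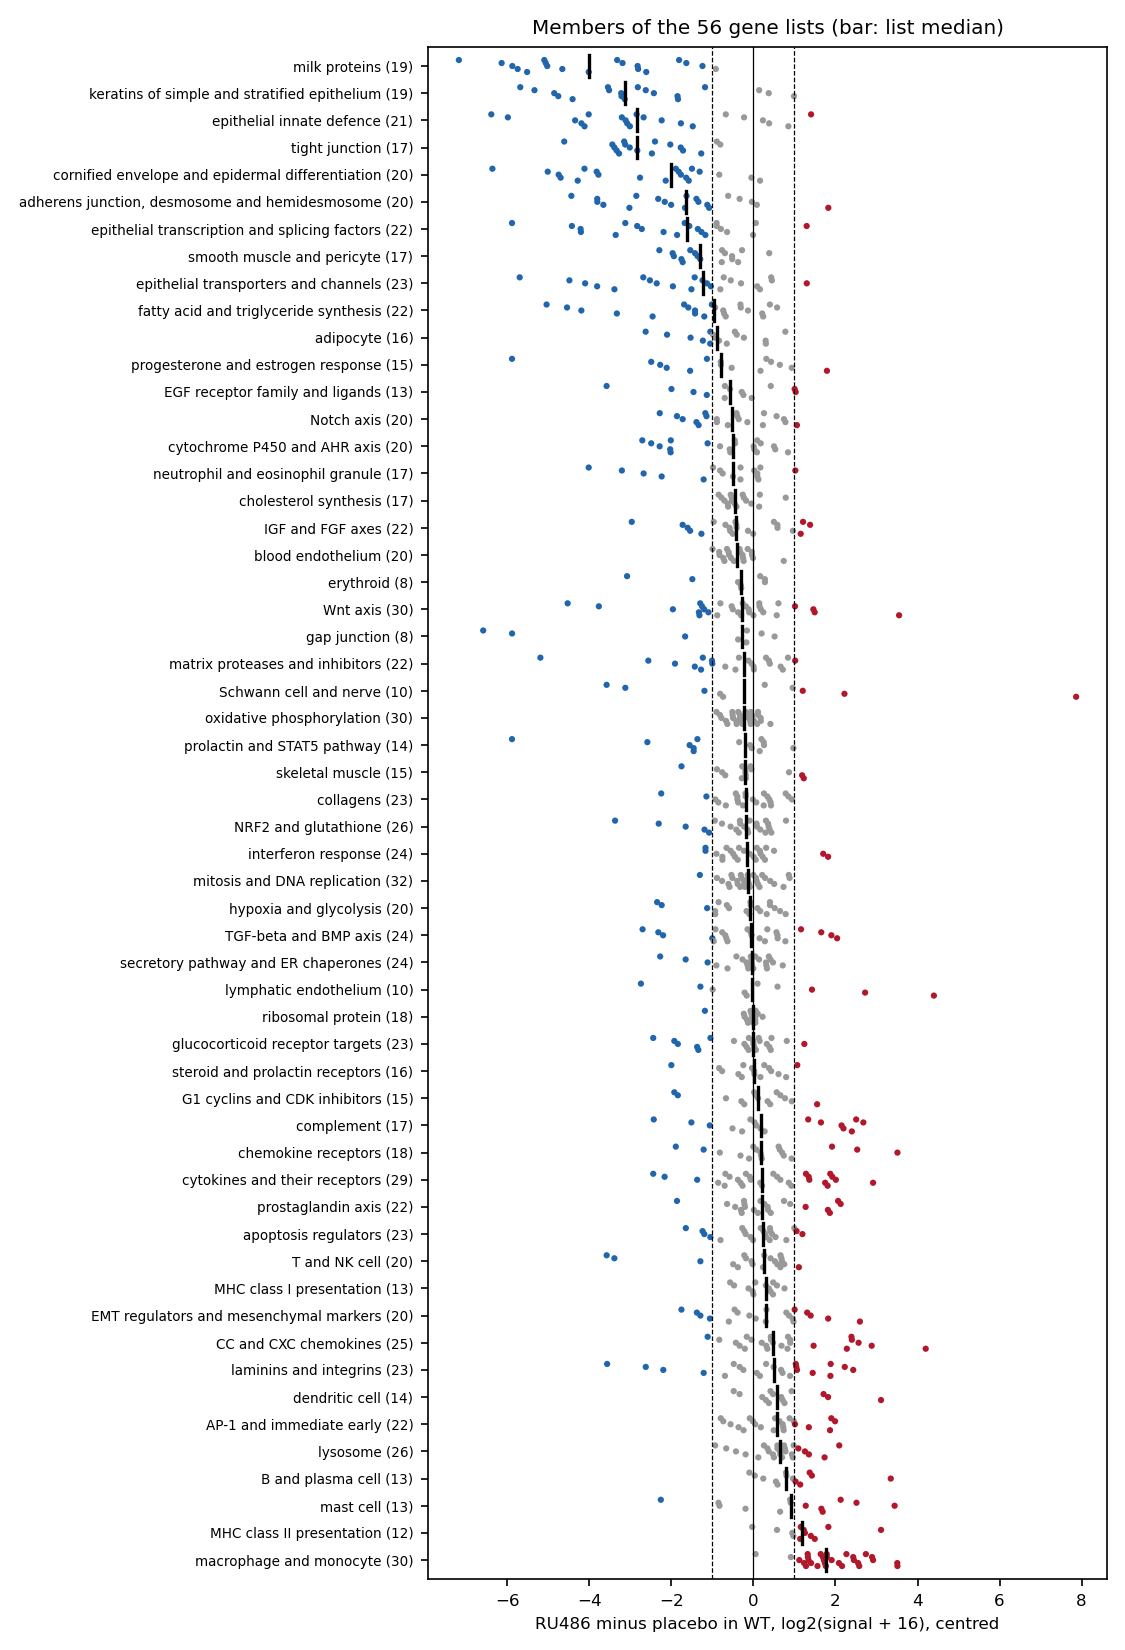
Differences of RU486 minus placebo in WT, on log2(signal + 16), for each measured member of the 56 lists, ordered by the list median (black bar), with blue for at least 2-fold lower, red for at least 2-fold higher and the number measured in brackets. Milk proteins stand at the top with a median of -4.02 and macrophage genes at the bottom with 1.78.

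Housekeeping and growth lists had medians from -0.23 to 0.24. Of 32 genes of mitosis and DNA replication 1 was lower and 0 higher (median -0.14), with Mki67 at 3494 and 3172 (-0.14). G1 cyclins and CDK inhibitors had 2 of 15 lower and 1 higher (13.3% and 6.67%, against 8.85% and 7.45% of all genes). Their median was 0.11, and the inhibitor gene Cdkn2a read 120.3 and 383.5 (1.55). Oxidative phosphorylation had 0 of 30 past 2-fold (median -0.23) and the ribosomal protein list 1 of 18 lower and 0 higher (median -0.02). Apoptosis regulators had 4 of 23 lower and 2 higher (median 0.24), with the proapoptotic gene Bik at 94.5 and 19.2 (-1.65) and Cflar, an inhibitor of caspase 8, at 979.3 and 2259.7 (1.19). Hypoxia and glycolysis had 3 of 20 lower and 0 higher (median -0.09), with Ndrg1 at 5482 and 1062 (-2.35) and Ldha at 7728 and 8268 (0.10).

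Of 26 NRF2 and glutathione genes 5 were lower and 0 higher (median -0.19), with Gsta4, a glutathione transferase gene, at 2047 and 182.8 (-3.37). The cytochrome P450 and AHR axis, which handles DMBA, had 7 of 20 lower and 0 higher (median -0.51). Cyp1b1, whose enzyme activates DMBA, read 1641.5 and 278.1 (-2.49), and Ahr itself 749.7 and 545.3 (-0.45). The prostaglandin axis had 5 of 22 higher and 1 lower (median 0.22), with the synthase gene Hpgds at 246.8 and 1130.3 (2.13). AP-1 and immediate early genes had 5 of 22 higher and 0 lower (median 0.58), with Fosl1 at 228.7 and 876.2 (1.87) and Fos at 695.4 and 1797 (1.35).

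The Schwann cell and nerve list had 3 of 10 lower and 3 higher (median -0.23, or 0.08 with raised signals) and held the largest difference of the comparison. Nefl, the neurofilament light chain gene, read 8 under placebo and 5589 under RU486, at least 582-fold higher, from 1 probe set. It read 5.5 and 46.8 on the PAX8PPARg arrays and stayed under the level filter, which takes the mean of the 4 arrays. Erbb3 (-3.58) and Sox10 (1052 and 106.3, -3.13), both also made by mammary epithelium, were lower, and S100b was higher at 34.3 and 218 (2.22).

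The WT RU486 array was more often at the extreme of the 4 than the WT placebo array, in both directions. Of the 511 lower genes the WT RU486 array was the lowest of the 4 in 458 (89.6%) and WT placebo the highest in 253 (49.5%). For the 341 higher genes the WT RU486 array was the highest in 328 (96.2%) and WT placebo the lowest in 77 (22.6%). Over all genes at or above the level filter the RU486 array was the lowest in 29.1% and the highest in 33.3%, and the placebo array the highest in 30.9% and the lowest in 8.2%. These shares are descriptions, since a gene lower under RU486 cannot be highest there. In PAX8PPARg tumours, which share no array with this comparison, 87 of the 511 lower genes were lower (17.0%), 87 higher (17.0%) and 337 within 2-fold. Of the 341 higher genes 13 were higher there (3.81%), 47 lower (13.8%) and 281 within 2-fold. Over all 6197 genes at the level filter 316 (5.1%) were lower and 313 (5.05%) higher in PAX8PPARg tumours.

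Promoters of the genes at least 4-fold lower and higher had a lower median GC content than those of all genes at the level filter, though not than all promoters. The median GC content of the 250 bases was 57.4% for 190 promoters of lower genes, 52.8% for 62 of higher genes, 60.4% for 6548 at the level filter and 52.4% for all promoters. A gene could have more than 1 promoter, each counted: the 190 came from 149 genes and the 62 from 50. The AP-1 motif TGANTCA was in 10% of promoters of lower genes, 11.3% of higher genes, 4.52% at the level filter and 6.75% of all promoters. The PU.1 motif GAGGAAGT, named for a factor of myeloid cells, was in 5 of 62 promoters (8.06%) of higher genes. It was in 2.63% of promoters of lower genes, 2.28% at the level filter and 2.44% of all promoters. The grainyhead motif AACCGGTT was in 0 of 190 promoters of lower genes, in 0.214% at the level filter and in 0.116% of all promoters. Both strands were searched, and a share of so few promoters says nothing of binding.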

How the data were processed

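The values were probe set signals of 4 Affymetrix arrays, as intensity on a linear scale, taken as the authors deposited them. The software that made them is not given in the labels. Their trimmed mean after leaving out 2% at each end was 500.2 on each array, so they had been scaled. Of 22690 probe sets 64 were controls, and 20380 of the others had 1 gene symbol, 691 several and 1555 none. Each gene took its brightest probe set by the mean of the 4 arrays. Values were log2(signal + 16), centred on each array's median. The level filter was the median of the 12393 genes.

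Groups came from the sample titles. With 1 array per group no test was run and genes were counted at 2-fold, 4-fold and 8-fold. The scripts were tested on simulated data. The gene lists and members were chosen with earlier results of these data known, so a list's direction is no independent support. Named genes came from the 20 largest positive and 30 largest negative differences at the level filter, the receptors and the gene lists. In each list they came from up to 8 members in its direction, up to 3 in the other and the 2 brightest within 2-fold. Not all genes within this rule are named. Other genes are said to be chosen after their values were seen, apart from casein cluster members and the genes in runs of neighbours, which were named by position. Alternatives were other pseudocounts, no centring, quantile normalization, averaged probe sets, other filters and a floor. Python 3.11.15, numpy 2.4.6 and pandas 2.3.3 were used.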

Additional observations from a re-analysis of the deposited data

Results flagged for a closer look

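Several results had opposite directions in the 2 genotypes, each from 1 array per group, and the differences between genotypes were not tested. The keratin list had a median of -3.14 in WT and 2.21 in PAX8PPARg tumours. The innate defence list had -2.85 and 1.70, and the cornified envelope list -2.02 and 3.0. Among single genes, Saa1 differed by -6.39 in WT and 3.63 in PAX8PPARg, Krt6a by -5.69 and 5.02, and Mmp13 by -5.20 and 5.93. On WT RU486 the signal of Krt6a was in the background range, so it was at least 70.7-fold lower there, and Mmp13 lay in it on the PAX8PPARg placebo array, so these differences are not exact. Asprv1, an epidermal protease gene, differed by -5.02 and 4.01, and Krtdap, a keratinocyte gene, by -4.75 and 3.44, the first not exact, since its WT RU486 signal lay in the background range (at least 41.6-fold lower). The immunoglobulin genes ran the other way, with Ighm at 3.35 and -3.12 and Igkv8-30 at 3.89 and -3.39.

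Probe sets without exactly 1 gene symbol entered no comparison. Of 856 at the filter level, 49 (5.72%) were lower and 59 (6.89%) higher by 2-fold or more under RU486 in WT, and 11 and 2 passed 8-fold.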

How the results depend on the processing

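No paired analysis was possible because the labels carry no replicate numbers and each group had 1 array. Without the level filter 923 genes were higher and 1097 lower, and 17 and 169 passed 8-fold, since more genes were counted. With a pseudocount of 64 in place of 16, which shrinks differences of dim genes, 5 and 64 passed 8-fold. Over members at or above the level filter alone, 8 tight junction genes, 8 transporters and 7 cornified envelope genes were lower, and 4 MHC class II genes higher, from fewer members. Timp4, dim on both arrays, with signals of 18.1 and 1, turned from a negative difference to 0.0176 with signals raised to the bacterial control, a setting that moved the median of all genes to 0.12. The same setting moved the list medians of B and plasma cells to 0.58, cytokines to 0.43, chemokine receptors to 0.43, Notch to -0.71, P450 to -0.22, neutrophils to -0.32, matrix proteases to -0.02, interferon response to -0.05, adipocytes to -0.74, T and NK cells to 0.34, receptors to 0.09 and Wnt to -0.22, and those of the lymphatic, nerve and erythroid lists past 0. With the probe set and filter taken from the WT arrays alone, 48.1% of the genes past 2-fold were higher, against 40.0%. Of 32 counts over all genes under the alternatives 26 stayed within 1.5 times the main count, as did 399 of 448 list counts. Of 3087 values of named genes 1 changed sign from a main difference of at least 2-fold. Sign changes of smaller differences were not counted. No alternative measures the variation between mice or pools, and dim genes have only bounds.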

Other observations

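The genes in these paragraphs were chosen after their values were seen. Granzyme genes, which encode proteases of cytotoxic cells, were lower under RU486 in WT tumours beyond the members of the T and NK cell list. Gzmd read 524.9 and 9.4 (at least 28.4-fold lower), Gzme 653.5 and 48.3 (-3.38), Gzmf 596.5 and 8 (at least 32.2-fold lower), Gzmg 751.3 and 19.3 (-4.44) and Gzmc 430.5 and 67.4 (-2.42). These genes are near copies, so their probe sets may share transcripts. Cd3g, a gene of the T cell receptor complex, read 82 and 114.8 (0.42).

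Some genes under the level filter were bright on the WT RU486 array. Vsig4, a complement receptor gene of tissue macrophages, read 18.3 under placebo and 663.6 under RU486 (4.31), with 4.5 and 20.5 on the PAX8PPARg arrays. The B cell attractant gene Cxcl13 read 26.6 and 766.5 (4.20). Beside Nefl, the neuronal gene Stmn2 read 132.2 and 1441 (3.30) and the nuclear receptor gene Nr2f1 91.9 and 1155 (3.44). Others were bright on the placebo array, with the amino acid oxidase gene Lao1 at 3259 and 20.5 (-6.49) and the kallikrein gene Klk6 at 2860.5 and 31.1 (-5.93).

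Neighbours in the order of measured genes, which skips genes without a measurement, were lower together in several families. Klk10, Klk8, Klk7 and Klk6 had a median of -4.69, Krt15, Krt19, Krt14, Krt16 and Krt17 of -3.52, and Crct1, Flg, Hrnr, Rptn and Tchh of -2.86. The last 2 medians are those of genes in the background range under RU486 and are not exact. Prss29, Tpsab1, Tpsb2 and Tpsg1 were higher together, with a median of 2.09.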
